A study of Mus musculus with 7 samples.

Results

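The family of miR-28, miR-151 and miR-708 is a set of 3 related microRNA (miRNA) hairpins, each of which gives a mature miRNA from its 5′ side (5p arm) and one from its 3′ side (3p arm). Its 6 members were taken by name from a table of 1915 mature mouse miRNAs: mmu-miR-28a-5p, mmu-miR-28a-3p, mmu-miR-151-5p, mmu-miR-151-3p, mmu-miR-708-5p and mmu-miR-708-3p, written below without mmu. All 6 were found, and all 6 passed the filter on low counts. They were counted by small RNA sequencing of the colorectum of female wild type C57BL/6 mice, 7 weeks old when treated. The 3 CRC mice (M4, M5 and M6) were given 10 mg/kg of the carcinogen azoxymethane (AOM). After an interval of 5 days they drank 2.5% dextran sodium sulfate (DSS), an agent that damages colon epithelium, for 7 days, and then plain water for 14 days. The labels call these mice stage T1 at day 17, and also give 3 repeats of the DSS and water course. The 3 healthy mice (M1, M2 and M3) had saline (0.9% NaCl) in place of AOM, and what they drank is not stated. No group had AOM or DSS alone, so effects of carcinogen, injury and tumour cannot be told apart.

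A miRNA hairpin is cut by Drosha and Dicer into a duplex of its 5p and 3p arms, and usually one arm, the guide, is kept in an Argonaute protein while the other is mostly degraded. The guide finds messenger RNAs chiefly through its seed, bases 2 to 8, and represses them. The hairpins of miR-28, miR-151 and miR-708 are known to descend from an old LINE-2 transposable element, which is why their arms look alike. miR-28 is known as a restraint on B-cell lymphoma, and its 2 arms were described as acting differently in colorectal cancer cells. miR-151 lies in the gene of focal adhesion kinase and is known for promoting migration of liver cancer cells. miR-708 is known to be induced with its host gene by the stress factor CHOP.

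The mature sequences are shown to compare the seeds, which are in capitals. They are written 5′ to 3′ with T for U, as in the deposited table.
miR-28a-5p: aAGGAGCTcacagtctattgag
miR-708-5p: aAGGAGCTtacaatctagctggg
miR-151-5p: tCGAGGAGctcacagtctagt
miR-28a-3p: cACTAGATtgtgagctgctgga
miR-708-3p: cAACTAGActgtgagcttctag
miR-151-3p: cTAGACTGaggctccttgagg
RefSeq (GRCm38.p6) held entries for 4 of the 6, both arms of miR-28a and of miR-708, and all 4 were identical to the deposited sequences.

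miR-28a-5p and miR-708-5p had the same seed, AGGAGCT, and were the only 2 of the 1915 entries to carry it at bases 2 to 8. miR-151-5p did not share it. Its own seed, CGAGGAG, occurred in 1 entry, itself. The 7 letters of the miR-28a-5p seed were present in miR-151-5p, but at bases 4 to 10. The next lines show the same 7 letters in capitals in miR-151-5p and in 2 further miR-28 entries of the table, where they start at base 1.
miR-151-5p: tcgAGGAGCTcacagtctagt
miR-28c: AGGAGCTcacagtctattga
miR-28b: AGGAGCTcacaatctatttag
The same letters started at one of bases 1 to 5 in 6 of the 1915 entries, the sixth being miR-7080-5p at base 3. The 3 3p arms each had a seed found in no other entry.

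The longest unbroken run shared by miR-28a-5p and miR-151-5p was 16 bases, AGGAGCTCACAGTCTA. For miR-28a-5p and miR-708-5p it was 8, AAGGAGCT. Both runs include the letters AGGAGCT, and a run ends at the first mismatch, so its length does not measure likeness over the whole arm. Thus the pair with a common seed had the shorter common run. miR-28c, at 20 bases, is contained whole in miR-28a-5p, so a miR-28a-5p read that is short at both ends cannot be told from miR-28c. miR-708-3p and miR-151-5p are complementary over 15 bases, and miR-708-3p and miR-28a-5p over 13. The members were 21 to 23 bases long, with 45.5% to 57.1% G and C.

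The 3 hairpins lie in introns of 3 different genes and on the same strand as them (GRCm38, GENCODE M21). Mir28a is at chr16:24827855-24827940 (plus strand) in an intron of Lpp, which encodes a LIM protein of cell adhesions. Mir151 is at chr15:73254815-73254882 (minus strand) in an intron of Ptk2, the gene of focal adhesion kinase, and a gene on the other strand, 1700085D07Rik, also spans it. Mir708 is at chr7:96249424-96249532 (plus strand) in an intron of Tenm4, a cell-surface teneurin of the developing nervous system. The hairpins are shown to place the arms, which are in capitals with the 5p arm first.
Mir28a: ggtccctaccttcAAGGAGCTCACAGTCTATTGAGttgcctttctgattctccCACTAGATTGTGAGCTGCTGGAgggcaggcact
Mir151: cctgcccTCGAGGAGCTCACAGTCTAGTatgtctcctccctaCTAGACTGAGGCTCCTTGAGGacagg
Mir708: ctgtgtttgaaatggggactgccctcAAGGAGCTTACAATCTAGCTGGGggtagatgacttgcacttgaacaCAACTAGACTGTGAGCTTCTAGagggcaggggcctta
Only the miRNAs were measured, and host messenger RNAs were not analysed here.

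Total miRNA reads lay between 8222508 and 15280434 in the healthy mice and between 3206127 and 6601899 in the CRC mice, so the groups did not overlap in depth. Levels are CPM, the read count scaled to the size of its library, with library sizes adjusted by TMM, a method that sets the bulk of miRNAs level between mice. The factors ran from 0.582 (M2) to 1.55 (M5). Across 279 miRNAs with a mean of at least 50 CPM, the log2 profile of healthy M3 correlated with CRC M4 at 0.966 and with M1 and M2 at 0.901 and 0.894 (across miRNAs, which are not replicates). M4 correlated with the healthy M1 and M2 at 0.909 and 0.903, and with the CRC mice M5 and M6 at 0.888 and 0.896. Between M1 and M2 the value was 0.992, and between M5 and M6 0.984, so the mice lay in neighbouring pairs. The fold changes of the members, the Mir151 arm ratio, and the shares and sums of arms are given with and without M3 and M4. All 7 smooth muscle marker miRNAs were detected in every mouse. Their summed level was 191049 to 824093 CPM in healthy and 44659.6 to 218675 CPM in CRC mice. The 4 nerve markers summed to 377 to 655 CPM in healthy and 225 to 318 CPM in CRC mice. The 9 epithelial markers gave 112463 to 219812 CPM against 88425 to 166356 CPM, and the 5 white blood cell markers 3184 to 15412 CPM against 6897 to 8254 CPM. The 3 red blood cell markers gave 282 to 563 CPM against 469 to 1843 CPM, and the liver miRNA miR-122-5p was at most 2.89 CPM. As a share of all reads the epithelial markers ran the other way, with 12.4% to 14.3% in healthy and 13.7% to 17.7% in CRC mice, and the smooth muscle markers again stood lower in CRC mice, with 21.1% to 48.0% in healthy and 6.56% to 20.7% in CRC mice. The nerve markers held 0.0355% to 0.0472% of reads in healthy and 0.0302% to 0.0360% in CRC mice. By that measure their groups overlapped. The part of these differences in the results below was not tested.

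The 6 members together took a small and even part of the reads: 0.294%, 0.207% and 0.212% in the healthy mice M1, M2 and M3, and 0.288%, 0.219% and 0.223% in the CRC mice M4, M5 and M6. Groups overlapped, and the highest value of each group, in M1 and in M4, was close to the other. By mean level over the 6 mice, miR-151-5p ranked at 67 of the 878 miRNAs tested, miR-28a-5p at 121, miR-151-3p at 167, miR-708-5p at 203, miR-28a-3p at 267 and miR-708-3p at 525. miR-151-5p was above miR-28a-5p, and miR-28a-5p above the other 4, in all 6 mice. miR-151-3p and miR-708-5p changed places between mice: 166 CPM of miR-708-5p stood against 165 CPM of miR-151-3p in M1, and 93.3 CPM against 351 CPM in M4. Library preparation favours some ends over others, so this order is one of reads.

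**Figure D1:**
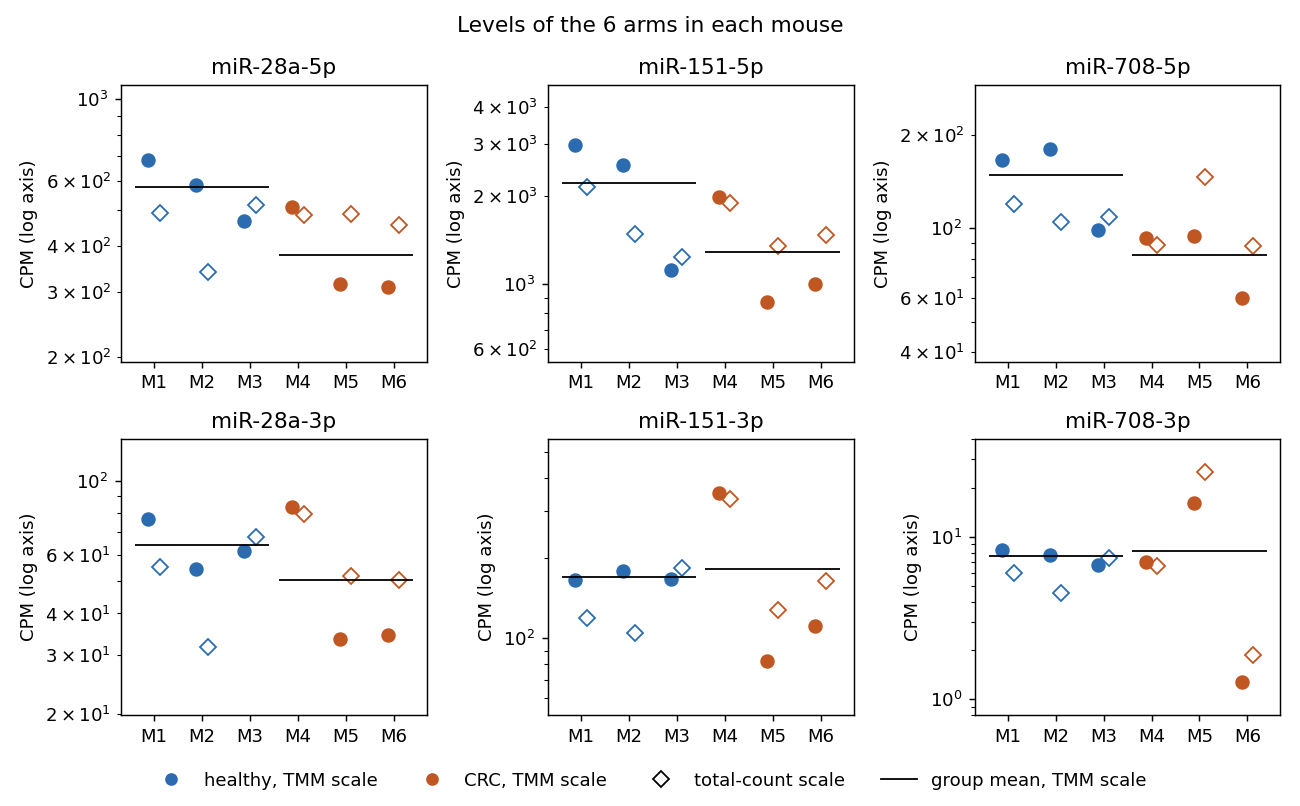
Level of each member in each mouse in CPM on a logarithmic axis, with 5p arms above and 3p arms below; filled circles are on the TMM scale (blue healthy, orange CRC), open diamonds on the total-count scale, and lines are group means on the TMM scale. On the TMM scale M5 and M6 lie low for miR-28a-5p and miR-151-5p, M4 stands alone at 351 CPM of miR-151-3p, and miR-708-3p spreads from 1.27 CPM in M6 to 16.3 CPM in M5.

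The 5p arms, which gave most of the reads of each hairpin, had lower mean levels in CRC than in healthy mice on the TMM scale, but none passed the test. miR-151-5p, the most abundant member, gave 2977 CPM (M1), 2550.2 CPM (M2) and 1121 CPM (M3) in healthy colorectum and 1985 CPM (M4), 871 CPM (M5) and 999 CPM (M6) in CRC. M1 and M2 were high and M5 and M6 low, but M3 lay below M4, so the groups overlapped. Healthy mice averaged 2216 ± 972 CPM and CRC mice 1285 ± 609 CPM (SD, n = 3 per group). The log2 fold change (CRC over healthy) was -0.79 (SE 0.50, 95% interval -1.90 to 0.32, adjusted p = 0.355, edgeR). In bulk tissue, fewer cells of a type and less of the miRNA per cell cannot be told apart.

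miR-28a-5p, the more abundant holder of the AGGAGCT seed, stood at 684, 585 and 469 CPM in the healthy mice M1, M2 and M3, and at 511, 316 and 310.4 CPM in the CRC mice M4, M5 and M6. M3 was again below M4, and M5 and M6 were below all other mice. The averages were 579 ± 108 CPM without and 379 ± 115 CPM with CRC (SD, n = 3 per group). The log2 fold change was -0.61 (SE 0.40, 95% interval -1.52 to 0.29, adjusted p = 0.388, edgeR).

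miR-708-5p, with the same seed, gave 166 CPM (M1), 181 CPM (M2) and 98.5 CPM (M3) in healthy colorectum and 93.3 CPM (M4), 94.3 CPM (M5) and 59.7 CPM (M6) in CRC. It was the 1 member of 6 whose groups did not overlap, with M3 a few CPM above M5. That gap lay within counting error. The exact Poisson 95% intervals were 92.2 to 105.2 CPM in M3 and 86.3 to 102.7 CPM in M5. Among the 878 tested miRNAs, 12.4% had every CRC mouse below every healthy mouse, and 26.5% had groups apart in either direction. On total counts alone 0 of the 6 members had groups apart, against 22.9%. The means were 148 ± 43.8 CPM and 82.4 ± 19.7 CPM (SD, n = 3 per group), with a log2 fold change of -0.85 (SE 0.43, 95% interval -1.81 to 0.11, adjusted p = 0.261, edgeR).

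The 3p arms had mean levels that were closer between the groups and more uneven among the CRC mice. For miR-151-3p and miR-28a-3p this closeness rested on 1 CRC mouse, M4. miR-151-3p stayed in a narrow range in the healthy mice, with 165, 179.6 and 167 CPM in M1, M2 and M3. In CRC mice it had 351 CPM in M4, 82.3 CPM in M5 and 112 CPM in M6, so that 1 CRC mouse was above and 2 were below every healthy mouse. The log2 fold change was 0.09 (SE 0.56, 95% interval -1.15 to 1.34, adjusted p = 0.944, edgeR), and without M4 it was -0.73 (adjusted p = 0.197, edgeR).

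miR-28a-3p stood at 76.8, 54.4 and 61.4 CPM in the healthy mice M1, M2 and M3, and at 83.7, 33.5 and 34.4 CPM in the CRC mice M4, M5 and M6. Here too M4 was the highest mouse of all and M5 and M6 the lowest. The log2 fold change was -0.35 (SE 0.48, 95% interval -1.43 to 0.74, adjusted p = 0.700, edgeR). Without M4 it was -0.82 (adjusted p = 0.153, edgeR), while without M5 it was -0.093 and without M6 -0.13.

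miR-708-3p, the scarcest member, gave 8.27 CPM (M1), 7.76 CPM (M2) and 6.72 CPM (M3) in healthy colorectum and 7.03 CPM (M4), 16.3 CPM (M5) and 1.27 CPM (M6) in CRC. The CRC mice M5 and M6, both low for the arms of miR-28a and miR-151, were the highest and the lowest of all mice here. These levels rest on 90 reads in M5 and 6 reads in M6. Their exact Poisson 95% intervals, 13.1 to 20.01 CPM and 0.468 to 2.77 CPM, did not overlap (these and other intervals on reads cover counting error only). The log2 fold change was 0.12 (SE 0.73, 95% interval -1.52 to 1.76, adjusted p = 0.944, edgeR). It was -0.82 without M5 and 0.59 without M6.

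In edgeR's quasi-likelihood test 0 of the 6 members passed a Benjamini-Hochberg adjusted p of 0.05, against 2.28% of the 878 miRNAs tested, all of them higher in CRC and 0% lower. At an unadjusted p under 0.05 there were also 0 of 6, against 23.2%, and DESeq2 and limma-voom called 0 of 6 as well, against 12.6% and 0% of all. Of the 6, 4 had negative log2 fold changes, against 51.5% of all. Their median was -0.48, against -0.03 over the 878. All 6 of the 95% intervals reached below -1, so a level in CRC at 0.5 of that in healthy mice lay within each of them. No change (0) also lay within all 6. On the upper side the intervals ran as far as 1.34 for miR-151-3p and 1.76 for miR-708-3p.

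The scaling moved these values, and it turned the direction of 2 members. RLE and upper quartile scaling reversed none of the 6. With total counts alone the log2 fold change of all miRNAs moved up by a median of 0.71. On that scale miR-28a-5p had 0.082, miR-28a-3p 0.23, miR-151-5p -0.051, miR-708-5p -0.051, miR-151-3p 0.62 and miR-708-3p 0.91. The sign differed from that on the TMM scale for miR-28a-5p and miR-28a-3p, and was the same for the other 4. Relative to the median miRNA of the same fit the 5p arms differed less between scalings. A change of scaling moves all miRNAs by a similar amount, and taking off the median removes most of it. The closeness of these values is thus largely arithmetic and no separate support for a difference. miR-151-5p lay at -0.75 on the TMM scale and -0.67 on total counts, miR-28a-5p at -0.58 and -0.54, and miR-708-5p at -0.82 and -0.67.

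**Figure D2:**
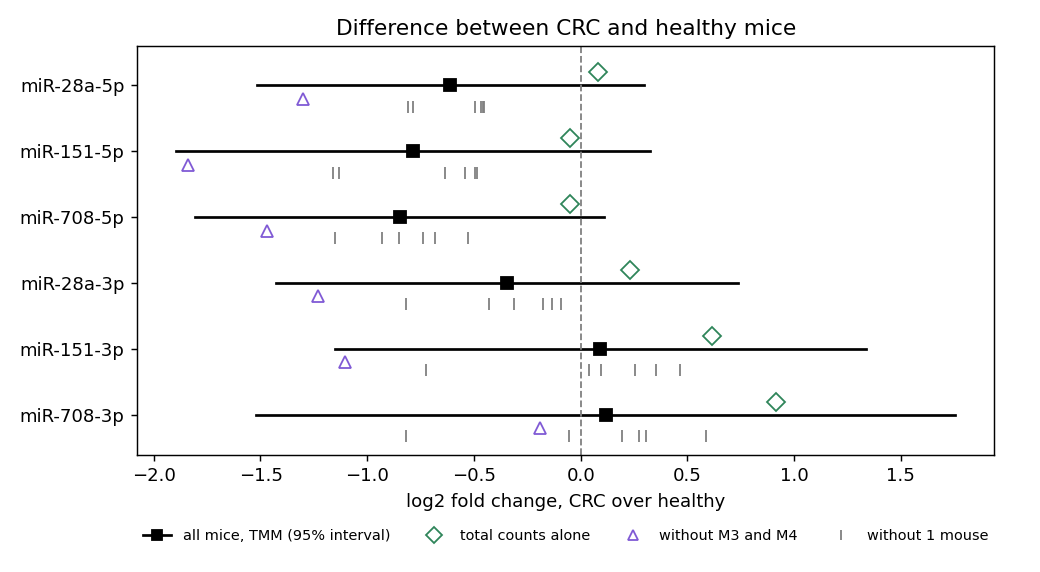
Log2 fold change of each member between CRC and healthy mice (horizontal axis): squares with 95% intervals are the edgeR values over all mice on the TMM scale, diamonds use total counts alone, triangles leave out M3 and M4, and ticks leave out 1 mouse each. Every interval spans 0, diamonds lie to the right of the squares, and triangles lie to their left, down to -1.84 for miR-151-5p.

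Without M3 and M4, a comparison of 2 healthy with 2 CRC mice, 5 of the 6 members were called lower in CRC. M3 and M4 were left out because earlier results of these same data showed their profiles to be alike. Leaving out mice that are alike across groups tends to set the groups further apart. The p-values of this fit are therefore descriptive only. In that fit 53.2% of 1082 tested miRNAs were called, and 27.4% of the 1082 were called lower. The share of members called lower was above that background, but the 2 arms of a hairpin share their source, and the difference between the members and other miRNAs was not tested. The log2 value of miR-151-5p was -1.84 (adjusted p = 4.77e-06, edgeR), that of miR-708-5p -1.47 (adjusted p = 0.000176, edgeR) and that of miR-28a-5p -1.30 (adjusted p = 0.000211, edgeR). miR-28a-3p had -1.23 (adjusted p = 0.00153, edgeR) and miR-151-3p -1.10 (adjusted p = 0.00257, edgeR). miR-708-3p had -0.19 and was not called. Between M3 and M4 themselves, 1 mouse against 1 with no test, M4 was higher by 1.07 log2 units for miR-151-3p and by 0.82 for miR-151-5p. The difference was 0.44 for miR-28a-3p, 0.13 for miR-28a-5p, 0.06 for miR-708-3p and -0.08 for miR-708-5p.

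The ratio of the 2 arms of a hairpin is taken within a library and does not depend on depth or scaling. In all 3 hairpins and all 6 mice the 5p arm had more reads than the 3p arm. The same held in every mouse for 103 of the 234 hairpins that had enough reads of both arms. No member hairpin passed limma's test of the log2 ratio between the groups, against 0.427% of the 234 hairpins called at an adjusted p of 0.05. At an unadjusted p under 0.05 there were 0 of 3, against 12.4%, and exact permutation tests gave p-values from 0.3 to 0.7. The groups overlapped for all 3, against 14.5% of hairpins with groups apart.

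Mir151 gave 18.0 reads of miR-151-5p per read of miR-151-3p in M1, 14.2 in M2 and 6.72 in M3, against 5.65 in M4, 10.6 in M5 and 8.96 in M6. Mice thus lay in neighbouring pairs, with M3 and M4 lowest, and not by group. As a share of the reads of both arms, the 3p arm held 5.26% in M1 (exact binomial 95% interval 5.00% to 5.53%) and 15.04% in M4 (14.5% to 15.6%), a gap wider than counting error. CRC minus healthy was -0.56 on the log2 scale of the 5p to 3p ratio (SE 0.55, 95% interval -1.80 to 0.67, adjusted p = 0.637, limma). Without M3 and M4 it was -0.72.

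Mir28a had the steadiest ratio. Its 5p to 3p ratio was 8.91 in M1, 10.7 in M2 and 7.63 in M3, against 6.11 in M4, 9.43 in M5 and 9.02 in M6. M4 was the lowest and M3 the next, as in Mir151, and the groups overlapped. CRC minus healthy was -0.16 on the log2 scale (SE 0.46, 95% interval -1.19 to 0.86, adjusted p = 0.840, limma).

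Mir708 had the widest spread. Its ratio was 20.1 in M1, 23.3 in M2 and 14.7 in M3, against 13.3 in M4, 5.79 in M5 and 46.8 in M6. Both extremes were again the CRC mice M5 and M6, whose 3p shares were 14.7% (12.01% to 17.8%) and 2.09% (0.771% to 4.49%, exact binomial 95% intervals). CRC minus healthy was -0.35 (SE 0.71, 95% interval -1.94 to 1.25, adjusted p = 0.784, limma). It was 0.34 without M5 and -1.12 without M6.

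**Figure D3:**
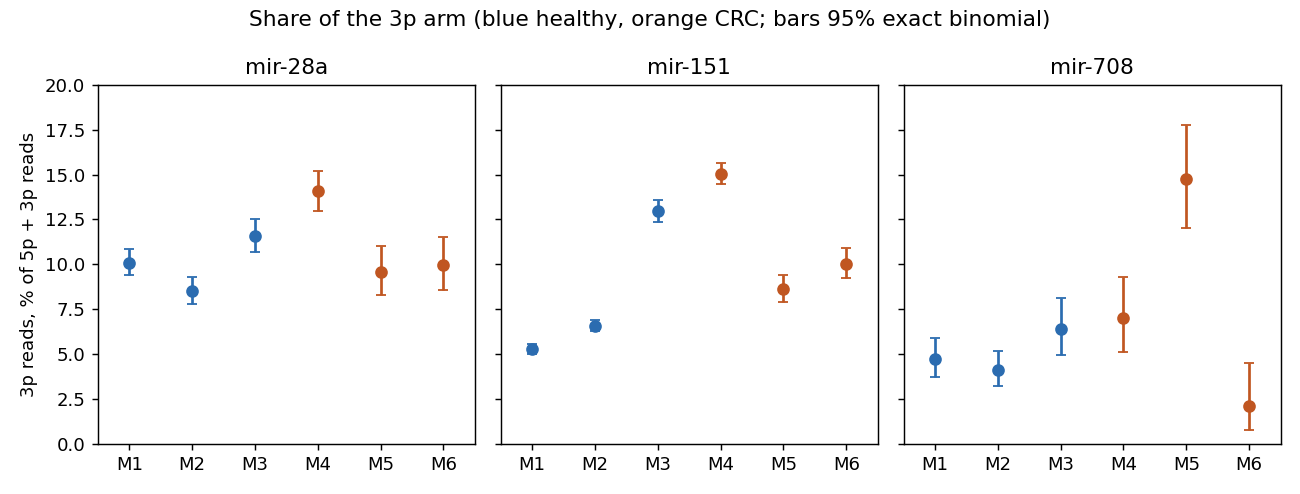
Reads of the 3p arm as a percentage of the reads of both arms (vertical axis) for each hairpin and mouse, blue healthy and orange CRC, with exact binomial 95% intervals as bars. For Mir151 M3 and M4 stand highest, up to 15.04% in M4; for Mir708 M5 stands at 14.7% and M6 at 2.09%; for Mir28a all mice lie between 8.52% and 14.1%.

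The make-up of the 5p reads was also compared within libraries. Of the reads of the 3 5p arms, miR-151-5p held 77.8% in M1, 76.9% in M2 and 66.4% in M3, against 76.6% in M4, 68.0% in M5 and 73.0% in M6. It was the largest part in every mouse, and M3, not a CRC mouse, had the smallest share. miR-28a-5p held 17.6% to 27.7% in healthy and 19.8% to 24.6% in CRC mice, and miR-708-5p 4.34% to 5.84% and 3.60% to 7.36%. The difference between groups in percentage points was -1.17 for miR-151-5p, 1.27 for miR-28a-5p and -0.10 for miR-708-5p. Exact two-sided permutation tests gave p = 0.800, 0.800 and 1, with adjusted p = 1 for each of the 6 shares and pair ratios tested. With 3 mice against 3 such a test cannot go below 0.1. Without M3 and M4 the differences in percentage points were -6.86 for miR-151-5p, 5.90 for miR-28a-5p and 0.965 for miR-708-5p.

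**Figure D4:**
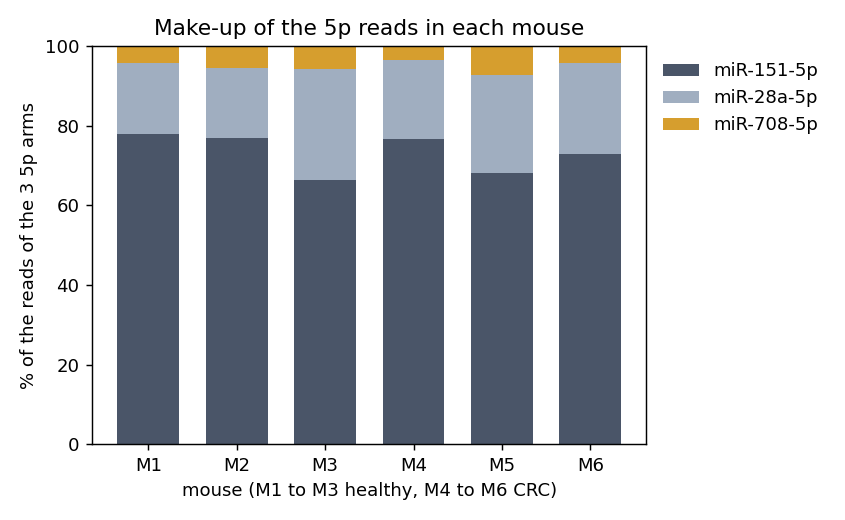
Share of miR-151-5p, miR-28a-5p and miR-708-5p in the summed reads of these 3 arms (vertical axis, in percent) for each mouse. miR-151-5p is the largest part in each bar, from 66.4% in M3 to 77.8% in M1, and the healthy and CRC bars overlap.

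The 2 arms with the common seed kept a ratio of miR-28a-5p to miR-708-5p reads between 3.24 and 4.76 in healthy and between 3.35 and 5.48 in CRC mice. The log2 difference between groups was 0.20 (exact permutation p = 0.5). The ratio of miR-151-5p to miR-28a-5p, which share the run of 16 bases but not the seed, was 4.35 in M1, 4.36 in M2 and 2.39 in M3, against 3.88 in M4, 2.76 in M5 and 3.22 in M6. M1 and M2 were highest and M3 lowest, and the log2 difference of miR-28a-5p to miR-151-5p between groups was 0.13 (exact permutation p = 0.800).

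Summed on the TMM scale, the 3 5p arms averaged 2944 ± 1117 CPM in the healthy group and 1747 ± 731 CPM in the CRC group (SD, n = 3 per group; exact permutation p = 0.200, adjusted p = 0.400). The lowest healthy mouse, M3 with 1689 CPM, was below M4 with 2589 CPM. The 3 3p arms averaged 242 ± 7.76 CPM and 240.4 ± 175 CPM (SD, n = 3 per group; exact permutation p = 1). The means were nearly equal, but the CRC mice spread from 132 CPM in M5 to 442 CPM in M4 while the healthy mice lay between 235 and 250.4 CPM. Without M3 and M4 the difference (CRC minus healthy) was -2246 CPM for the 5p arms and -106 CPM for the 3p arms.

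The other entries that hold the miR-28a-5p seed near their start were few, and all but miR-28c were scarce. Of these 3, miR-28b, miR-28c and miR-7080-5p, only miR-28c passed the filter on low counts, and 0 were called. miR-28c stood at 21.9, 28.3 and 27.7 CPM in the healthy mice M1, M2 and M3, and at 19.0, 13.2 and 12.1 CPM in the CRC mice M4, M5 and M6. Groups did not overlap on the TMM scale, where 12.4% of all tested miRNAs had CRC below, and did overlap on total counts. Its log2 fold change was -0.81 (SE 0.43, adjusted p = 0.290, edgeR). miR-28c reads came to 3.20% to 5.92% of the miR-28a-5p reads of the same mouse, so whether they come from Mir28c or from shortened miR-28a-5p changes the level of miR-28a-5p little. miR-28b had at most 9 reads and miR-7080-5p at most 5 reads in a mouse.

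Among 274 miRNAs of other hairpins with a mean of at least 50 CPM, those with a pattern most like a member over the 6 mice differed by member (Pearson r of log2 CPM, as a description, on shared TMM factors and over mice that lie in neighbouring pairs). For miR-151-5p they were let-7g-5p (0.990), miR-107-3p (0.985) and miR-425-5p (0.985). For miR-28a-5p they were miR-30a-3p (0.985), let-7e-5p (0.982) and miR-181b-5p (0.981). An r above 0.9 was common for these 2 arms, with 58 of the 274 miRNAs each. For miR-708-5p the nearest were miR-195a-5p (0.974), miR-411-5p (0.956) and miR-27a-3p (0.953), and 25 of the 274 exceeded 0.9.

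Among the 3p arms, miR-28a-3p was most like let-7a-5p (0.992), miR-378d (0.966) and let-7c-5p (0.954). miR-151-3p was most like miR-106b-3p (0.974), miR-744-5p (0.959) and miR-183-5p (0.955). An r above 0.9 was found with 13 of the 274 miRNAs for miR-28a-3p and with 6 for miR-151-3p. For miR-708-3p the highest values were lower, 0.746 for miR-218-5p, 0.741 for miR-146b-5p and 0.723 for miR-187-3p, and 0 of the 274 miRNAs exceeded 0.9.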

How the data were processed

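Small RNA was sequenced on an Ion Proton and aligned with BWA to mm10 (GRCm38), per the submitters' processing notes and the labels' protocols. The authors deposited whole-number read counts for 1915 mature miRNAs, not normalized; the sources used here do not say how reads matching several entries were counted. Mouse M1 has 2 labelled libraries and 1 column, used as 1 replicate; all mice are separate animals by their labelled ids. On the total-count scale, without the TMM factors, a count of 0 allows up to 0.196 CPM in M2 and 0.936 CPM in M6 (3 reads of the total). The main test was edgeR 4.0.16 under R 4.3.3 (TMM, filterByExpr, robust quasi-likelihood fits, two-sided, Benjamini-Hochberg over 878 miRNAs); the SE is the log2 fold change over the square root of F. Arm ratios were tested with limma 3.58.1 (trend, robust) on log2 ratios with 0.5 added, for 234 hairpins whose arms both average 10 reads or more. Shares and sums were tested by exact permutation over mice. DESeq2 1.42.0 and limma-voom were alternatives, beside other scalings, filters, a removed GC trend (loess, span 0.75), summed contained entries and left-out mice. Scripts were tested on simulated data. Named miRNAs are the members, entries with the miR-28a-5p seed starting at bases 1 to 5, fixed cell type markers, and the 3 most alike miRNAs of each member. Members, lists and tests were chosen with earlier results of these data known.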

Additional observations from a re-analysis of the deposited data

How the results depend on the processing

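The count of 0 called members held in all other settings but 1: without M3 and M4 it was 5. That comparison has fewer mice, and the cause was not tested. All miRNAs called numbered 20, but 43 with total counts, 64 without a filter, 111 by DESeq2, 576 without M3 and M4, 0 by limma-voom and above a mean of 50 CPM, and 0 to 237 without 1 mouse. The call of 0 arm ratios held throughout. Signs also changed. With total counts miR-28a-5p had 0.082 and miR-28a-3p 0.23 (log2), and the summed 3p arms differed by 86.5 CPM between groups. By limma-voom miR-151-3p had -0.20 and miR-708-3p -0.47, and with the GC trend removed miR-151-3p had -0.056. Without M3 and M4 miR-151-3p had -1.10, the 1 change of sign that came with a call, and miR-708-3p had -0.19, the miR-708-5p share 0.965 percentage points and the log2 ratio of miR-151-5p to miR-708-5p -0.36. miR-151-5p and miR-708-5p were negative in all settings.

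Leaving out 1 mouse gave log2 fold changes of -0.81 to -0.45 for miR-28a-5p, -0.82 to -0.093 for miR-28a-3p, -1.16 to -0.49 for miR-151-5p, -0.73 to 0.47 for miR-151-3p, -1.15 to -0.53 for miR-708-5p and -0.82 to 0.59 for miR-708-3p. Arm ratio differences ran from -0.28 to 0.032 for Mir28a, -0.98 to -0.27 for Mir151 and -1.12 to 0.34 for Mir708. Shares differed by -0.46 to 4.60 points for miR-28a-5p, -4.81 to 1.10 for miR-151-5p and -1.23 to 0.65 for miR-708-5p. The log2 ratio of miR-28a-5p to miR-151-5p differed by -0.012 to 0.42 and that of miR-151-5p to miR-708-5p by -0.20 to 0.41, the summed 5p arms by -1825 to -755 CPM and the summed 3p arms by -102.7 to 52.3 CPM. No paired analysis was possible because the mice are separate animals and the labels match no healthy mouse with a CRC mouse. miR-708-3p was not tested above a mean of 50 CPM. Depth limits miR-708-3p most, with 6 to 90 reads per mouse.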
